A study of Mus musculus with 8 samples.

Results

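Immunoglobulin variable and constant segments were examined in RNA-seq libraries of whole pancreatic tissue from 4 Bach2KO and 4 Bach2WT mice. The segments were taken as the rows of the deposited gene table annotated as immunoglobulin V, D, J or C genes, without pseudogenes, which gave 164 of 21434 genes. These were 151 V segments (73 heavy chain, 75 kappa, 2 lambda and 1, Gm43218, with no immunoglobulin name), 2 J segments and 11 constant region genes, and no row carried the D annotation. In mm39 coordinates 81 of them lay on chromosome 12, which holds the heavy chain locus, 78 on chromosome 6 with the kappa locus and 5 on chromosome 16 with the lambda locus. All animals were 18 weeks old and untreated, with 2 females (mice 1 and 2) and 2 males (mice 3 and 4) per genotype. Bach2KO mice of the strain C57BL/6N-Bach2tm1b(EUCOMM)Wtsi/leg were homozygous for a constitutive targeted deletion in Bach2, and Bach2WT mice were the wild types of the same strain. The knockout therefore reached every cell type, B cells and pancreas alike, and a difference between the genotypes cannot be placed in either of them. In bulk tissue, fewer cells of a type and less RNA per cell cannot be told apart, and heavy and light chains of 1 cell cannot be paired.

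An antibody consists of heavy and light chains, and each chain joins a variable domain, assembled from V, J and, in the heavy chain, D segments, to a constant region. B cells start with the IgM and IgD constant regions and can later exchange them for IgG, IgE or IgA by class switch recombination, which needs the enzyme AID. The transcription factor Bach2 is known in B cells as a repressor of Prdm1, the gene of the plasma cell regulator Blimp-1, and as a factor needed for class switching. Plasma cells transcribe rearranged immunoglobulin genes at very high levels, so that a small number of such cells can supply most immunoglobulin reads of a tissue.

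The libraries held 72299745 to 172029360 counts on genes. Acinar cell transcripts dominated in all of them: the 7 acinar genes summed to 334073 to 372070 CPM (counts scaled to library size with TMM factors) in Bach2KO and 345069 to 455545 CPM in Bach2WT mice. Bach2 itself had 16, 3, 12 and 14 counts in Bach2KO mice 1 to 4 and 4, 4, 31 and 6 counts in Bach2WT mice 1 to 4. These counts were too low, and overlapped too far, to check the genotype labels, so that genotype below means the label of the library. A count per gene also does not show whether its reads came from the deleted part. The number of immunoglobulin counts set the precision of everything that follows. It was 31480, 133, 398 and 4255 in Bach2KO mice 1 to 4 and 10014, 4468, 1775 and 169 in Bach2WT mice 1 to 4. Bach2KO mouse 2 and Bach2WT mouse 4 thus gave very few immunoglobulin reads, although their libraries had 77238429 and 84052687 counts.

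The total immunoglobulin level varied more between mice of 1 genotype than between the genotypes. It was 194, 1.61, 5.26 and 22.0 CPM in Bach2KO mice 1 to 4 and 111, 34.0, 12.4 and 2.43 CPM in Bach2WT mice 1 to 4. The mean was 55.8 ± 92.8 CPM (SD, n = 4) in Bach2KO and 40.0 ± 49.3 CPM (SD, n = 4) in Bach2WT mice, while the medians had the opposite order with 13.7 and 23.2 CPM. Without Bach2KO mouse 1 the difference of the means, Bach2KO minus Bach2WT, went from 15.8 to -30.4 CPM. Constant regions made up 63.8% to 75.7% of the immunoglobulin counts of every library. Heavy chain constant counts exceeded light chain constant counts 1.10 to 1.55 times in 7 libraries and 3.95 times in Bach2KO mouse 2, which had only 19 light chain constant counts.

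**Figure D1:**
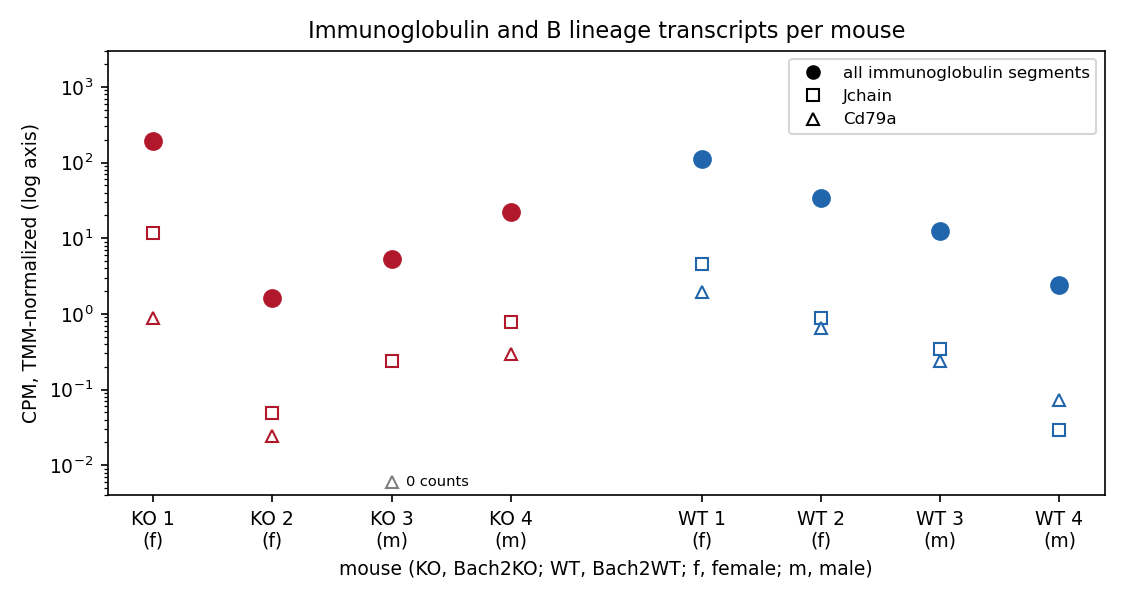
TMM-normalized CPM on a log axis for the sum of all 164 immunoglobulin segments (filled circles), Jchain (squares) and Cd79a (triangles), with 1 column per mouse, Bach2KO in red and Bach2WT in blue. The immunoglobulin level ran from 1.61 to 194 CPM in Bach2KO and from 2.43 to 111 CPM in Bach2WT mice, and the grey triangle marks 0 counts of Cd79a in Bach2KO mouse 3.

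The heavy chain constant regions differed in composition. In 3 of 4 Bach2WT mice about equal parts of the heavy chain constant counts were IgM and switched isotypes, whereas IgM made up most of them in every Bach2KO mouse. IgM, the first isotype a B cell makes, accounted for 98.8%, 100%, 84.9% and 99.3% in Bach2KO mice 1 to 4. In Bach2WT mice 1 to 4 it accounted for 55.4%, 50.4%, 53.6% and 100%. Bach2WT mouse 4 and Bach2KO mouse 2 were the libraries in which IgM was the sole isotype, and they had the fewest heavy chain constant counts, 68 and 75. Their 0 counts of other isotypes allow a share of up to 4.41% in Bach2WT mouse 4 and up to 4% in Bach2KO mouse 2, or 8.82% and 8% if each read pair was counted as 2 reads. The IgM share was 95.8 ± 7.26% (SD, n = 4) in Bach2KO and 64.8 ± 23.5% (SD, n = 4) in Bach2WT mice, a difference that missed the threshold (2-sided exact permutation test, p = 0.143, Benjamini-Hochberg adjusted p = 0.476 over 10 composition values). The smallest p this design allows is 0.0286.

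Among the 6 libraries with at least 100 heavy chain constant counts, 3 per genotype, the IgM shares did not overlap. The 95% Wilson intervals, which cover counting error only, were 98.6% to 99.0%, 78.0% to 89.9% and 98.8% to 99.6% in Bach2KO mice 1, 3 and 4. They were 53.9% to 56.9%, 48.1% to 52.6% and 49.9% to 57.3% in Bach2WT mice 1, 2 and 3. This limit on depth was set after the values were known, and with 3 mice per group the exact permutation test cannot go below p = 0.1, the value it gave. Dividing by gene length left the order of the libraries similar, with IgM at 99.1%, 100%, 88.4% and 99.5% of heavy chain constant FPKM in Bach2KO mice 1 to 4 and at 58.4%, 48.4%, 60.9% and 100% in Bach2WT mice 1 to 4.

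**Figure D2:**
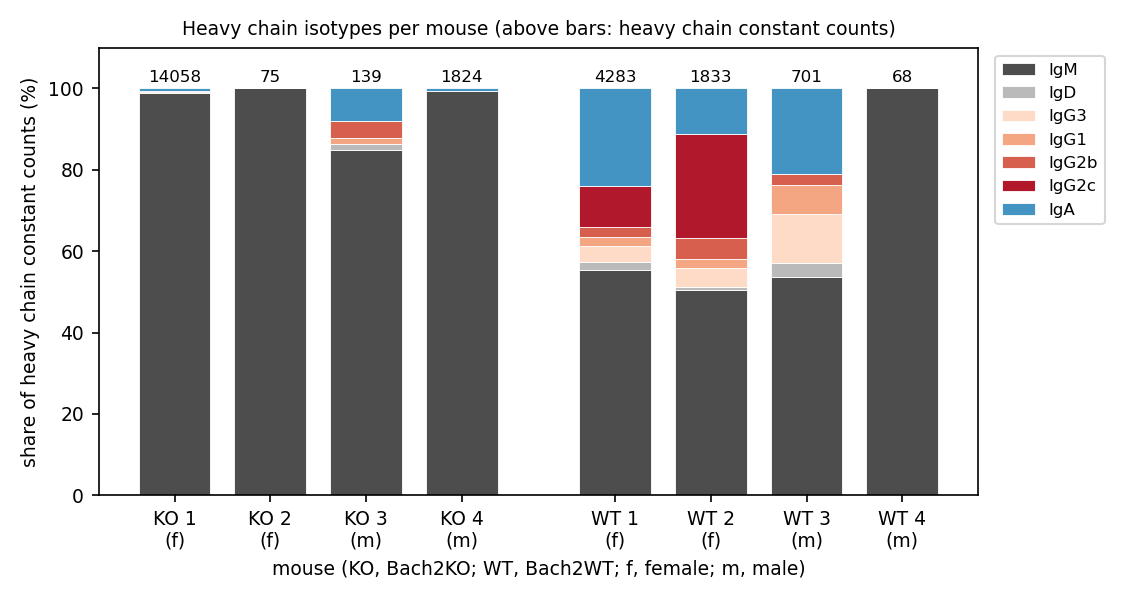
Share of each isotype in the heavy chain constant counts (stacked bars, percent), with 1 bar per mouse and the number of heavy chain constant counts above it. IgM made up 84.9% or more of every Bach2KO bar, against 50.4% to 55.4% in Bach2WT mice 1 to 3 and 100% of the 68 counts in Bach2WT mouse 4.

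IgG is the main class-switched antibody of serum, and its subclasses share the same overall structure but differ in the hinge between antigen-binding arms and stem. IgG was 0.512%, 0%, 5.76% and 0.110% of heavy chain constant counts in Bach2KO mice 1 to 4 and 18.9%, 37.5%, 21.8% and 0% in Bach2WT mice 1 to 4. The means were 1.59 ± 2.78% and 19.6 ± 15.4% (SD, n = 4 each, 2-sided exact permutation test, p = 0.143, adjusted p = 0.476). IgA, the isotype of secretions, was 0.548%, 0%, 7.91% and 0.603% in Bach2KO mice 1 to 4 and 23.9%, 11.2%, 21.1% and 0% in Bach2WT mice 1 to 4. The means were 2.27 ± 3.77% and 14.1 ± 10.8% (SD, n = 4 each, 2-sided exact permutation test, p = 0.143, adjusted p = 0.476). For both classes the 6 libraries with at least 100 heavy chain constant counts formed groups without overlap. The isotype shares are parts of 1 whole, so that this adds no separate support to the IgM result. The limit was set after the values were known and leaves out Bach2WT mouse 4 and Bach2KO mouse 2. The 2-sided exact permutation test gave p = 0.1 for each class in these libraries, the smallest this size allows. Within Bach2KO mice, mouse 3 carried the highest share of switched isotypes, on 139 heavy chain constant counts.

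The hinge exons of the 4 IgG genes (exon 2) are shown because the subclass counts rest on sequences that set these genes apart, with in-frame cysteine codons (TGT or TGC), the sites of heavy chain disulfide bonds, in capitals. The sequences were taken 5′ to 3′ on the minus strand of chromosome 12 from the GENCODE M21 transcripts (GRCm38) by Ensembl identifier.
Ighg1: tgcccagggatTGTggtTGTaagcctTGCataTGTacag
Ighg2b: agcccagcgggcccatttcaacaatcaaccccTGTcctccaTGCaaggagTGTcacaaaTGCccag
Ighg2c: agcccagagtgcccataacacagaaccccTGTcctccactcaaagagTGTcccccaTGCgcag
Ighg3: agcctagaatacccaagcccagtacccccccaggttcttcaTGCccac
The hinge exons were 39, 66, 63 and 48 bases long in this order and held 4, 4, 3 and 1 cysteine codons. The first exon of Ighg2c had 87.6% identity to Ighg2b, 88.0% to Ighg1 and 78.7% to Ighg3, and reads from stretches shared by these genes may have been assigned to none or to either.

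Ighg2c, the gene of the IgG2a-type subclass that C57BL mice carry, had 0 counts in all 4 Bach2KO mice and 433, 466, 0 and 0 counts in Bach2WT mice 1 to 4 (mm39, chr12:113248945-113252552, minus strand). Its counts were thus found in both Bach2WT females and in neither Bach2WT male. It made up 53.5% (95% Wilson interval 50.1% to 56.9%) of the IgG counts of Bach2WT mouse 1 and 67.7% (64.1% to 71.1%) of those of Bach2WT mouse 2. In Bach2WT mouse 3 it had 0 of 153 IgG counts, which allows a share of up to 1.96%, or 3.92% if both mates were counted. Bach2KO mouse 1, the library with the most heavy chain constant counts, had 0 Ighg2c counts among 72 IgG counts, which allows up to 4.17%, or 8.33% if both mates were counted. Against a floor of 3 counts per library the Bach2KO level was at least 76.0-fold lower than the Bach2WT mean of 2.09 ± 2.47 CPM (SD, n = 4), or at least 38.0-fold lower with a floor of 6 counts. Ighg2c did not pass the filter on low counts of the edgeR test. In DESeq2 it was lower in Bach2KO mice (log2 fold change -24.8, Benjamini-Hochberg adjusted p = 2.06e-09). With 0 counts in every Bach2KO mouse this fold change is not a measure of size. Bach2WT mice 3 and 4 had 0 counts as well, so that this p does not mean a separation of the genotypes. Of the 44 segments with a DESeq2 value 2 were called lower, Ighg2c among them, against 0.156% of all 14700 genes with such a value, and 0 were called higher against 0.388%.

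Ighg3, the subclass made largely against carbohydrate antigens, had 8, 0, 0 and 0 counts in Bach2KO mice 1 to 4 and 177, 85, 85 and 0 in Bach2WT mice 1 to 4, and was not tested in edgeR. Ighg1 had 30, 0, 2 and 0 counts in Bach2KO mice 1 to 4 and 90, 40, 50 and 0 in Bach2WT mice 1 to 4. Ighg2b had 34, 0, 6 and 2 counts in Bach2KO mice 1 to 4 and 109, 97, 18 and 0 in Bach2WT mice 1 to 4. These 3 genes had in common that Bach2WT mice 1 and 2 exceeded every Bach2KO mouse, whereas Bach2WT mouse 4 had 0 counts. In edgeR's quasi-likelihood test the log2 fold change, Bach2KO against Bach2WT, was -2.87 for Ighg1 (SE 1.36, adjusted p = 0.670) and -2.74 for Ighg2b (SE 1.27, adjusted p = 0.668), with Benjamini-Hochberg adjustment over all 12820 genes tested.

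Igha had 77, 0, 11 and 11 counts in Bach2KO mice 1 to 4 and 1022, 206, 148 and 0 in Bach2WT mice 1 to 4. Its log2 fold change of -4.28 (SE 1.28) had an unadjusted p of 0.0052 and an adjusted p of 0.523 in edgeR (Benjamini-Hochberg). Ighd, which is spliced from the same primary transcript as IgM in mature naive B cells, had 16, 0, 2 and 0 counts in Bach2KO mice 1 to 4 and 80, 16, 24 and 0 in Bach2WT mice 1 to 4 (log2 fold change -3.13, SE 1.43, edgeR Benjamini-Hochberg adjusted p = 0.663). As a share of heavy chain constant counts IgD was 0.114%, 0%, 1.44% and 0% in Bach2KO mice 1 to 4 and 1.87%, 0.873%, 3.42% and 0% in Bach2WT mice 1 to 4. Ighm itself had 13893, 75, 118 and 1811 counts in Bach2KO mice 1 to 4 and 2372, 923, 376 and 68 in Bach2WT mice 1 to 4. Its log2 fold change of 1.41 (SE 1.17) had an adjusted p of 0.856 in edgeR (Benjamini-Hochberg), and it was -1.20 without Bach2KO mouse 1. The 5 IgG and IgA genes and Ighd thus had lower mean CPM in Bach2KO mice, and Ighm had a higher mean.

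Across all segments, 16 of the 164 passed the filter on low counts: 7 constant regions, 1 heavy chain V, 7 kappa V and 1 lambda V segment. None of them passed the adjusted threshold in edgeR, where 0.0078% of all genes tested, 1 gene and not a segment, did so. At an unadjusted p under 0.05, 2 of the 16 were higher in Bach2KO mice (Igkv1-117 and Igkv10-96), against 3.9% of all genes tested, and 3 were lower (Igha, Ighd and Ighg2b), against 3.56%. The groups did not overlap for 0 of the 16, against 4.49% of all genes tested. Of the 16, 10 had a positive and 6 a negative log2 fold change, with a median of 0.42 beside 0.05 over all genes, and the 7 constant regions had a median of -2.74. Without the filter on low counts edgeR called 10 segments among all 164 at the adjusted threshold, against 55 genes higher and 18 lower of all 21434. Of the segments 2 were higher (Iglc2 and Iglv2) and 8 lower (Igha, Ighg2c, Ighg3, Ighv1-11, Ighv1-78, Igkv3-2, Igkv5-39 and Igkv8-16). Among the 8, Ighv1-78 had nearly all of its counts, 446, in Bach2WT mouse 1. The same mouse held most counts of Igha (1022), Igkv3-2 (244) and Igkv8-16 (166). Iglc2 and Iglv2 had most of theirs in Bach2KO mouse 1, with 337 for Iglv2. For a different effect of genotype in females and males, 0 of the 12820 genes passed the adjusted threshold (edgeR interaction term). The 16 segments were among them, but Ighg2c was not. With 2 mice per sex and genotype this does not show that the effect was the same in both sexes.

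Light chains are made from the kappa locus in most mouse B cells and from the small lambda locus in the rest. Igkc, the single kappa constant region, had 7919, 17, 99 and 961 counts in Bach2KO mice 1 to 4 and 2361, 1415, 609 and 60 in Bach2WT mice 1 to 4 (log2 fold change 0.40, SE 1.16, edgeR Benjamini-Hochberg adjusted p = 0.970). The lambda share of light chain constant counts was 18.6%, 10.5%, 13.9% and 18.6% in Bach2KO mice 1 to 4. It was 24.7%, 4.39%, 4.84% and 0% in Bach2WT mice 1 to 4. Bach2WT mouse 1 thus had the highest share of all, the other Bach2WT mice the lowest 3, and the Bach2KO mice lay between them. The means were 15.4 ± 3.92% and 8.48 ± 11.0% (SD, n = 4 each, 2-sided exact permutation test, p = 0.286, adjusted p = 0.714). The 0 of 60 counts in Bach2WT mouse 4 allows up to 5%, or 10% if both mates were counted.

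The V segments gave another order for some libraries. Lambda V segments made up 23.1%, 9.68%, 4.41% and 27.6% of kappa and lambda V counts in Bach2KO mice 1 to 4 and 30.8%, 3.53%, 3.53% and 34.3% in Bach2WT mice 1 to 4. The largest gap between both measures was in Bach2WT mouse 4, with 12 lambda V counts of 35 and 0 lambda constant counts of 60. By V segments the difference of the means, Bach2KO minus Bach2WT, was -1.83 percentage points, opposite in sign to that by constant regions, 6.92.

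**Figure D3:**
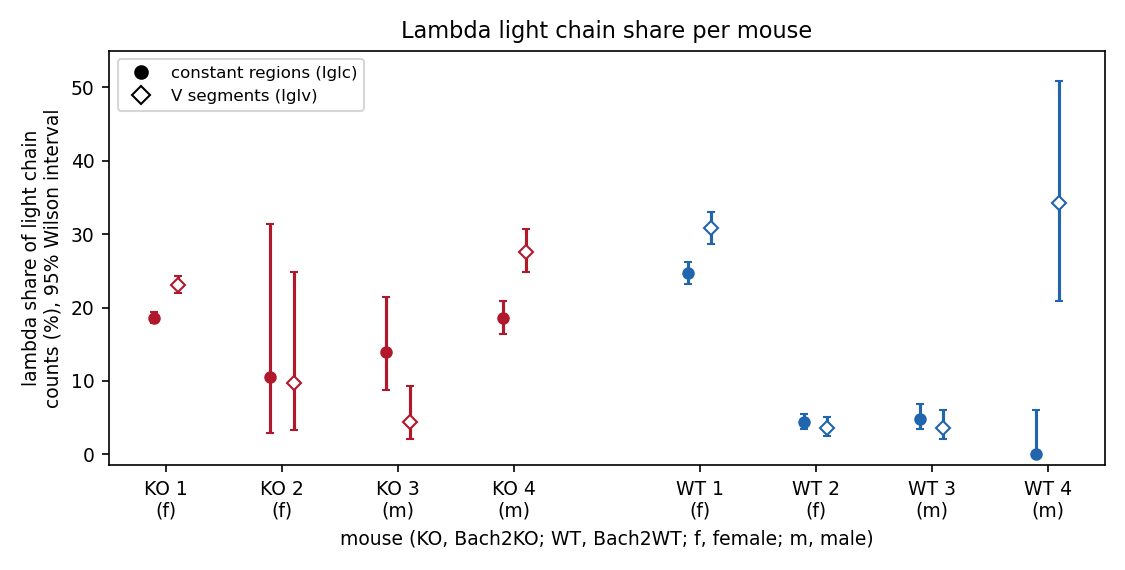
Lambda share of light chain counts in percent with 95% Wilson intervals (counting error only), by constant regions (filled circles) and by V segments (open diamonds), for each Bach2KO mouse (red) and Bach2WT mouse (blue). Both measures lay under 7% in Bach2WT mice 2 and 3 and above 18% in Bach2KO mice 1 and 4 and in Bach2WT mouse 1.

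Iglv1 and Iglv2, the lambda V segments in the table, are nearly identical, with 7 differing bases of 294 and 97.6% identity, and are printed to show how little sets them apart. The differing bases are in capitals, 5′ to 3′ on the minus strand of chromosome 16, from the GENCODE M21 transcripts.
Iglv1: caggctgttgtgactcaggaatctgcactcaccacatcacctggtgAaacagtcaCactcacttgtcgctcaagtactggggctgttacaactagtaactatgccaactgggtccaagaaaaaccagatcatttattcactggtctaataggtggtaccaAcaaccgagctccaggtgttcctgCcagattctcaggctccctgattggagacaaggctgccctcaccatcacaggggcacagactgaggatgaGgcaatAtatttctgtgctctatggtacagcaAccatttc
Iglv2: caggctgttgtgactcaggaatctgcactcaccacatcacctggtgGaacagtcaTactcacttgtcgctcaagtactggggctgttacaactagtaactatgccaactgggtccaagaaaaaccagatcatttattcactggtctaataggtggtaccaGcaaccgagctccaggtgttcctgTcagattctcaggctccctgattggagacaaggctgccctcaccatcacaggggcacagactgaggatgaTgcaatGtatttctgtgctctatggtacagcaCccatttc
Iglv1 had 894, 3, 6 and 227 counts in Bach2KO mice 1 to 4 and 515, 28, 10 and 12 in Bach2WT mice 1 to 4. Iglv2 had 337, 0, 0 and 19 counts in Bach2KO mice 1 to 4 and 0, 0, 2 and 0 in Bach2WT mice 1 to 4. Bach2WT mouse 1, with 515 Iglv1 counts, had none for Iglv2, so that the identity of these segments did not spread reads evenly over both.

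The lambda constant regions followed the V segments in this respect. In the mouse locus Iglv1 joins to Iglc3 or Iglc1, and Iglv2 joins mainly to Iglc2. Iglc1 had 1199, 2, 16 and 186 counts in Bach2KO mice 1 to 4 and 763, 55, 15 and 0 in Bach2WT mice 1 to 4. Iglc2 had 609, 0, 0 and 33 counts in Bach2KO mice 1 to 4 and 6, 2, 7 and 0 in Bach2WT mice 1 to 4. Bach2KO mice 1 and 4, which had Iglv2 counts, were also the mice with more than 10 Iglc2 counts. Iglc3 had 1, 0, 0 and 0 counts in Bach2KO mice 1 to 4 and 4, 8, 9 and 0 in Bach2WT mice 1 to 4, and its coding sequence was 96.2% identical to that of Iglc2, so that reads could be split between them. For Iglc1, with 73.5% identity to Iglc2 and 74.8% to Iglc3, the log2 fold change was -0.04 (SE 1.41, edgeR Benjamini-Hochberg adjusted p = 0.998).

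The V segments describe the breadth of the repertoire but do not count clones, since different B cell clones can use the same segment. Heavy chain V segments had 2361, 8, 8 and 361 counts in Bach2KO mice 1 to 4 and 921, 362, 94 and 6 in Bach2WT mice 1 to 4. At least 10 counts were reached by 40, 0, 0 and 12 of the 73 segments in Bach2KO mice 1 to 4 and by 11, 12, 3 and 0 in Bach2WT mice 1 to 4 (2-sided exact permutation test, p = 0.8, adjusted p = 0.921). Kappa V segments had 4094, 28, 130 and 644 counts in Bach2KO mice 1 to 4 and 1157, 765, 328 and 23 in Bach2WT mice 1 to 4. At least 10 counts were reached by 41, 1, 1 and 16 of the 75 segments in Bach2KO mice 1 to 4 and by 21, 23, 7 and 0 in Bach2WT mice 1 to 4 (2-sided exact permutation test, p = 0.943, adjusted p = 0.943). Bach2KO mouse 1, which had the most counts of both chains, also had the most segments, whereas Bach2WT mouse 1 had more heavy chain and kappa V counts than Bach2WT mouse 2 but fewer segments.

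To compare libraries of unequal depth, those with at least 90 V counts were thinned to the smallest of them. At 94 heavy chain V counts, 31.9 and 23.5 segments were expected in Bach2KO mice 1 and 4 and 17.3, 26.0 and 10 in Bach2WT mice 1, 2 and 3. At 130 kappa V counts, 30.6, 4 and 19.9 segments were expected in Bach2KO mice 1, 3 and 4 and 26.3, 36.1 and 18.7 in Bach2WT mice 1, 2 and 3. At equal depth the genotypes overlapped for both chains, and Bach2KO mouse 3 stood out with the fewest kappa segments.

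The concentration on a few segments differed between chains in how the genotypes compared. The 3 most used heavy chain V segments took 23.2% and 29.1% of heavy chain V counts in Bach2KO mice 1 and 4 and 65.8%, 36.2% and 63.8% in Bach2WT mice 1, 2 and 3. The other libraries had 8 counts or fewer, of which the top 3 segments held all, so that the test over all 8 mice below includes 3 libraries fixed at 100%. Among the 5 libraries with at least 90 heavy chain V counts, a limit set after the values were known, both Bach2KO mice lay below all Bach2WT mice (difference of the means -29.1 percentage points, 2-sided exact permutation test, p = 0.2, the smallest this size allows). For kappa the top 3 segments took 41.1%, 100%, 97.7% and 39.1% in Bach2KO mice 1 to 4 and 59.3%, 28.8%, 55.2% and 87.0% in Bach2WT mice 1 to 4. Over all 8 mice neither top 3 share passed the test (2-sided exact permutation test, p = 0.83 for heavy chain and p = 0.657 for kappa, adjusted p = 0.921 for both). The effective number of segments, which is the inverse of the chance that 2 random V counts of a library come from the same segment, was 23.2 and 16.7 for the heavy chain in Bach2KO mice 1 and 4 and 3.84, 15.2 and 4.58 in Bach2WT mice 1, 2 and 3. These 5 values did not overlap between the genotypes either, with Bach2KO mouse 4 and Bach2WT mouse 2 close together (difference of the means 12, 2-sided exact permutation test, p = 0.2). For kappa the genotypes overlapped, and it was 10.3, 1.31 and 11.6 in Bach2KO mice 1, 3 and 4 and 7.58, 21.4 and 6.52 in Bach2WT mice 1, 2 and 3. Over all 8 mice it passed the test for neither chain (2-sided exact permutation test, p = 0.543 and adjusted p = 0.905 for both).

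**Figure D4:**
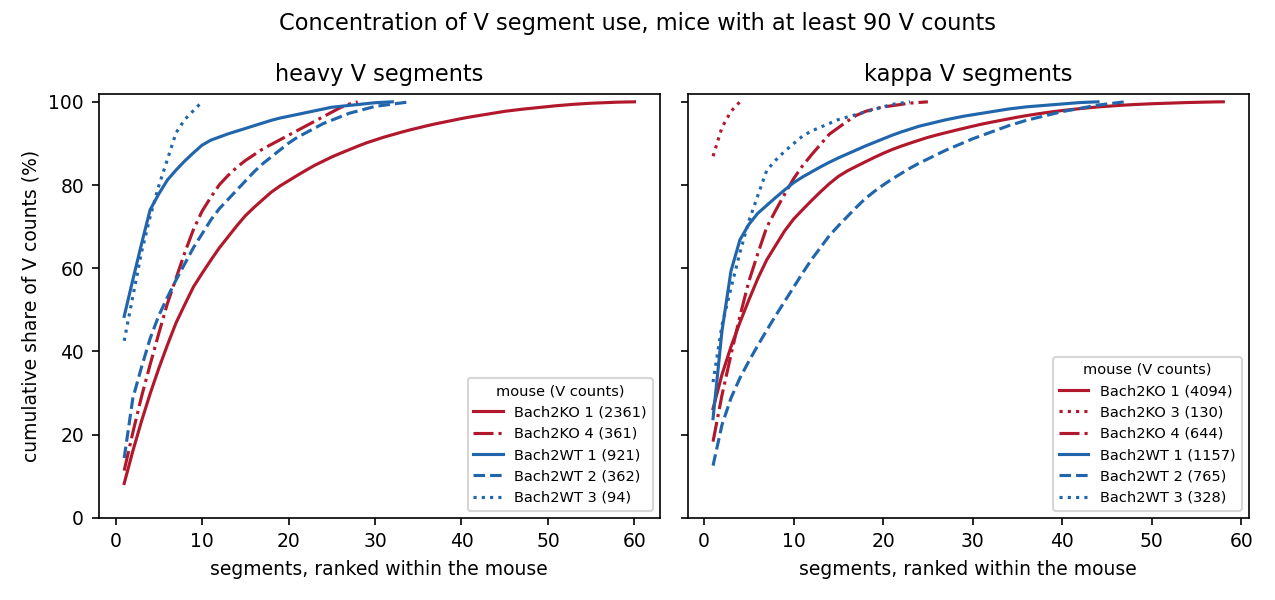
Cumulative share of V counts in percent against segments ranked by count within each mouse, for heavy chain V (left) and kappa V segments (right), in mice with at least 90 counts of that chain. The first heavy chain segment held 48.4% in Bach2WT mouse 1 and 8.26% in Bach2KO mouse 1, and the first kappa segment held 86.9% in Bach2KO mouse 3.

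Leading V segments are printed below by their last 90 coding bases, since the differences between libraries described next are differences in which of them was used. The heavy chain set holds a leader of each library with at least 90 heavy chain V counts, and the kappa set holds a leader of every library, of which Igkv1-117 and Igkv6-15 led on only 28 and 23 kappa V counts. They run 5′ to 3′ on the strand of the gene, from the GENCODE M21 transcripts, and end at the edge of the germline V segment where joining to D or J takes place. Capitals mark the last match to TANTNNTGT or TANTNNTGC, the codons of the conserved cysteine and the 2 residues before it. Ighv11-2 and Igkv4-91 are shown for the comparison described after them.
Ighv7-1: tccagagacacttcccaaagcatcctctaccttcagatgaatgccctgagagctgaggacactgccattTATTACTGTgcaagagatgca
Ighv1-81: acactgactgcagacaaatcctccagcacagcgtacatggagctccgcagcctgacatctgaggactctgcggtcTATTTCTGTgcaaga
Ighv1-78: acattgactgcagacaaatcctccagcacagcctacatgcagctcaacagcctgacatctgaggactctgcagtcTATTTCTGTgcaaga
Ighv1-11: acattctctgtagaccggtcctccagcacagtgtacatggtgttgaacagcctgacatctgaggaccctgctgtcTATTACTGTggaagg
Ighv12-3: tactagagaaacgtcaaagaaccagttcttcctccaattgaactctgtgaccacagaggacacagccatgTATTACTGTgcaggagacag
Ighv11-2: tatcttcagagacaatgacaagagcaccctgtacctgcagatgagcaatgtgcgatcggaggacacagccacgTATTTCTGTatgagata
Igkv10-96: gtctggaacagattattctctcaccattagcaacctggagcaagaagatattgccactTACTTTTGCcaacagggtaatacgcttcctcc
Igkv1-117: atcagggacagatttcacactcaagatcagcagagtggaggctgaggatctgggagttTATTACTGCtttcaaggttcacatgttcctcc
Igkv14-126: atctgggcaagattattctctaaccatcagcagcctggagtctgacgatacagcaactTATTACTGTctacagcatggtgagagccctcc
Igkv5-39: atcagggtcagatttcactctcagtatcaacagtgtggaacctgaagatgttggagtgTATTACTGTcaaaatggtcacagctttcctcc
Igkv6-15: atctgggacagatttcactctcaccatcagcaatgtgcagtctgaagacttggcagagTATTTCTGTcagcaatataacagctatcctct
Igkv4-91: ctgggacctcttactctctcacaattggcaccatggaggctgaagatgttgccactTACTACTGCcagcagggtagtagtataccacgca
Over their last 270 coding bases, 76 of the 150 V segments compared had a neighbour at 95% identity or more, so that single segments are uncertain where the counting could divide reads. Of those printed, Ighv11-2 (98.9% to Ighv11-1) and Igkv1-117 (96.7% to Igkv1-110) were of this kind, while Ighv12-3 (75.9% to Ighv3-6) and Ighv1-11 (83.3% to Ighv1-76) were the most distinct.

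In Bach2WT mouse 1 a single heavy chain segment, Ighv1-78, held 446 counts or 48.4% of heavy chain V counts. The same segment had 8 counts in Bach2KO mouse 1 and 0 in the 6 other libraries. The leading segment of Bach2KO mouse 1, Ighv7-1, held only 195 counts or 8.26%, closely followed there by Ighv1-9 with 184 and Ighv1-80 with 169. Ighv1-80 was counted in no other library, Ighv1-9 had 2 counts in Bach2WT mouse 2, and Ighv1-39 had 156 counts in Bach2KO mouse 1, 4 in Bach2KO mouse 4 and 0 to 12 in Bach2WT mice. Bach2KO mouse 4 was led by Ighv1-81 with 41 counts or 11.4%. Bach2WT mouse 2 was led by Ighv1-11 and Ighv3-6 with 52 counts each or 14.4%, and Bach2WT mouse 3 by Ighv12-3 with 40 counts or 42.6%. The leaders of the libraries with few heavy chain V counts, Ighv1-18, Ighv1-7 and Ighv8-8, had 6 counts each. No heavy chain segment thus led in more than 1 mouse.

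Sharing between mice on the heavy chain side was bounded by depth. Bach2KO mice 2 and 3 and Bach2WT mouse 4 had 8, 8 and 6 heavy chain V counts, so that no segment could reach 10 counts there. Bach2KO mouse 1 had the most, 2361. The numbers below therefore do not show how far the mice shared segments. Of the 73 segments 48 reached 10 counts in some library, 27 of these in a single library, and 21 in Bach2KO mouse 1 alone. No heavy chain segment reached 10 counts in more than 4 libraries. Of the 75 kappa segments 56 reached 10 counts in some library, 25 of these in a single library, and 16 in Bach2KO mouse 1 alone. The kappa segment shared most widely was Igkv14-126 with at least 10 counts in 6 libraries, a number that Iglv1 also reached. Both rearranged J segments in the table were close to 0, with 2 counts for Ighj4 in Bach2WT mouse 1 and 4 counts for Igkj5 in Bach2KO mouse 1. J segments were therefore of no use for the repertoire at this depth.

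Among kappa segments, Igkv14-126 led in 3 mice of both genotypes. It had 184, 0, 113 and 118 counts in Bach2KO mice 1 to 4 and 87, 29, 107 and 0 in Bach2WT mice 1 to 4 (log2 fold change 0.73, SE 1.04, edgeR Benjamini-Hochberg adjusted p = 0.933). It held 86.9% of kappa V counts in Bach2KO mouse 3, 18.3% in Bach2KO mouse 4 and 32.6% in Bach2WT mouse 3. In textbook B-1a cells this segment forms, together with Ighv11-2, antibodies to phosphatidylcholine, and Ighv12-3 with Igkv4-91 forms a second such pair. The choice of the 3 partner segments was made with their values known. Ighv11-2 had 62, 0, 0 and 33 counts in Bach2KO mice 1 to 4 and 18, 14, 0 and 0 in Bach2WT mice 1 to 4 (log2 fold change 0.89, SE 1.47, edgeR Benjamini-Hochberg adjusted p = 0.944). Ighv12-3 had 19, 0, 0 and 0 counts in Bach2KO mice 1 to 4 and 5, 8, 40 and 0 in Bach2WT mice 1 to 4, and Igkv4-91 had 116, 0, 0 and 6 and 10, 31, 29 and 0. All 4 segments were counted in mice of both genotypes, and Bach2KO mouse 3, with 113 Igkv14-126 counts, had none of Ighv11-2 among its 8 heavy chain V counts.

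Other kappa segments were counted in 1 genotype only or nearly so. At least 10 counts in some Bach2KO library and 0 in all Bach2WT libraries were found for 5 kappa and 12 heavy chain segments. The reverse held for 7 kappa and 2 heavy chain segments. These numbers depend on depth. Bach2KO mouse 1 alone had 2361 heavy chain V counts, against 921, 362, 94 and 6 in Bach2WT mice 1 to 4. No share over all genes was computed beside them, and they do not show segment use restricted to a genotype. Igkv5-39 led in Bach2WT mice 1 and 2, with 276, 96, 45 and 0 counts in Bach2WT mice 1 to 4 and 2, 0, 0 and 0 in Bach2KO mice 1 to 4, and had an adjusted p of 0.0800 in DESeq2 (Benjamini-Hochberg). Igkv3-4 had 22, 75, 2 and 0 counts in Bach2WT mice 1 to 4 and 0 in all Bach2KO mice, and was lower in Bach2KO mice in DESeq2 (Benjamini-Hochberg adjusted p = 0.0223) by at least 7.55-fold against the floor of 3 counts per library, or 3.77-fold with 6 counts. Igkv3-2 had 244, 17, 2 and 0 counts in Bach2WT mice 1 to 4 and Igkv8-16 had 166, 22, 0 and 0, and both had 0 in all Bach2KO mice. Bach2WT mice 1 and 2, the females, supplied most of the counts of these 4 segments, and mouse 1 alone did so for Igkv3-2 and Igkv8-16. In the segments named next most counts likewise came from 1 animal, Bach2KO mouse 1. Igkv10-96 had 1075 counts or 26.3% of kappa V counts in Bach2KO mouse 1 and 0, 0 and 20 in Bach2KO mice 2 to 4, against 11, 17, 0 and 0 in Bach2WT mice 1 to 4 (log2 fold change 4.70, SE 1.74, edgeR Benjamini-Hochberg adjusted p = 0.605). Igkv1-117 had 222, 20, 0 and 60 counts in Bach2KO mice 1 to 4 and 10, 7, 0 and 4 in Bach2WT mice 1 to 4 (log2 fold change 3.15, SE 1.23, edgeR Benjamini-Hochberg adjusted p = 0.627). Igkv1-135 had 335 counts in Bach2KO mouse 1, 5 and 12 in Bach2WT mice 1 and 2, and 0 in the other libraries. Igkv6-15 had 273, 0, 0 and 0 counts in Bach2KO mice 1 to 4 and 2, 49, 25 and 8 in Bach2WT mice 1 to 4, where it led, tied with Igkv8-24, in Bach2WT mouse 4.

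**Figure D5:**
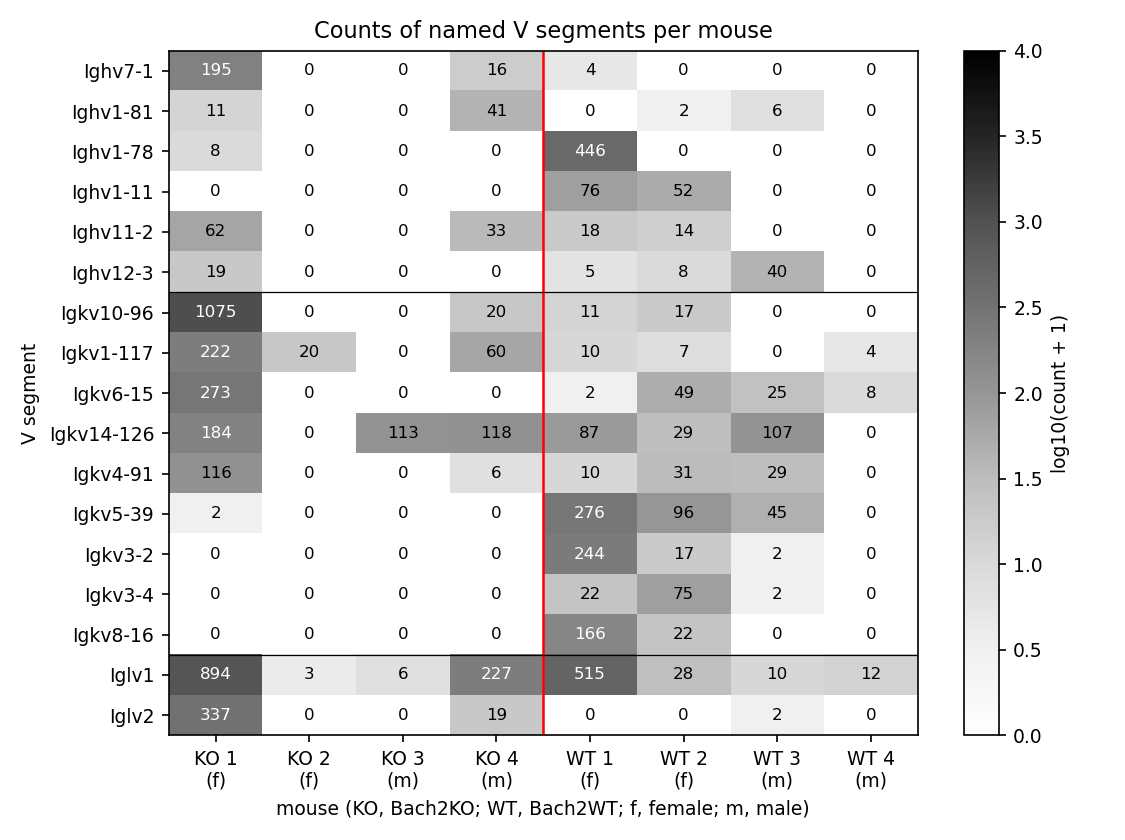
Counts of 17 named V segments (rows, heavy chain, kappa and lambda from top to bottom) in each mouse (columns, Bach2KO left and Bach2WT right of the red line), with shading by log10(count + 1). Igkv14-126 and Iglv1 were counted in mice of both genotypes, while Igkv3-2, Igkv3-4, Igkv8-16 and Ighv1-11 had 0 counts in all 4 Bach2KO mice.

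Genes of the B lineage were read beside the immunoglobulins. Jchain, which links IgM and IgA into polymers in plasma cells, had 1905, 4, 18 and 149 counts in Bach2KO mice 1 to 4 and 411, 116, 50 and 2 in Bach2WT mice 1 to 4 (log2 fold change 1.15, SE 1.28, edgeR Benjamini-Hochberg adjusted p = 0.910). Cd79a, a signalling chain of the B cell receptor, had 142, 2, 0 and 57 counts in Bach2KO mice 1 to 4 and 174, 86, 34 and 5 in Bach2WT mice 1 to 4 (log2 fold change -1.22, SE 1.09, edgeR Benjamini-Hochberg adjusted p = 0.865). Set against the immunoglobulin counts of the same library, Jchain had 60.5, 30.1, 45.2 and 35.0 counts per 1000 in Bach2KO mice 1 to 4 and 41.0, 26.0, 28.2 and 11.8 in Bach2WT mice 1 to 4. Cd79a had 4.51, 15.0, 0 and 13.4 counts per 1000 immunoglobulin counts in Bach2KO mice 1 to 4 and 17.4, 19.2, 19.2 and 29.6 in Bach2WT mice 1 to 4. Per immunoglobulin count, every Bach2KO mouse thus had fewer Cd79a counts than every Bach2WT mouse. Cd79b, the partner chain of Cd79a, had 2.70, 30.1, 5.03 and 13.2 counts per 1000 immunoglobulin counts in Bach2KO mice 1 to 4 and 5.99, 15.2, 6.76 and 94.7 in Bach2WT mice 1 to 4, and these values overlapped. The Cd79a ratio was formed after its parts were known and was not tested, and it rests on 5 or fewer Cd79a counts in 3 libraries.

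Of the 16 B cell genes 8 were tested, of which 0 passed the adjusted threshold in edgeR, 1 was positive and 7 were negative, with a median log2 fold change of -1.41 beside 0.05 over all genes. At an unadjusted p under 0.05, 1 of the 8 was lower, against 3.56% of all genes tested. It was Fcmr, the receptor for the Fc part of IgM, with 29, 0, 0 and 5 counts in Bach2KO mice 1 to 4 and 76, 34, 25 and 10 in Bach2WT mice 1 to 4 (log2 fold change -2.66, SE 1.14, edgeR Benjamini-Hochberg adjusted p = 0.648). Ms4a1, a surface protein of B cells, was at or near 0 in most libraries, with 16, 0, 0 and 4 counts in Bach2KO mice 1 to 4 and 24, 14, 0 and 0 in Bach2WT mice 1 to 4. Cd22, an inhibitory receptor of B cells, had 32, 8, 0 and 24 counts in Bach2KO mice 1 to 4 and 113, 18, 0 and 0 in Bach2WT mice 1 to 4. Cd79b had 85, 4, 2 and 56 and 60, 68, 12 and 16. The summed level of the 16 genes was 0.664 to 3.83 CPM in Bach2KO and 0.734 to 10.4 CPM in Bach2WT mice.

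Of the 13 plasma cell genes 6 were tested, 3 with a positive and 3 with a negative log2 fold change, 0 past the adjusted threshold in edgeR and 0 at an unadjusted p under 0.05, with a median of 0.09. The positive ones were Jchain (1.15), Cd38 (0.47) and Sdc1 (0.36), and the negative ones Derl3 (-0.27), Txndc5 (-0.20) and Xbp1 (-0.17). Sdc1 and Xbp1, which mark plasma cells elsewhere, were not specific here, since Xbp1 reached 10233 to 32446 counts per library and is abundant in acinar cells. Derl3 and Txndc5 also had high counts in every library, 2725 to 9843 and 1435 to 4372. The split and the median therefore do not describe plasma cells alone. Prdm1, the gene that Bach2 is known to repress, had 19, 12, 6 and 22 counts in Bach2KO mice 1 to 4 and 0, 6, 0 and 0 in Bach2WT mice 1 to 4, below the filter of the edgeR test. Irf4 had 39, 0, 2 and 6 counts in Bach2KO mice 1 to 4 and 6, 8, 18 and 0 in Bach2WT mice 1 to 4, and Pou2af1, a coactivator of immunoglobulin transcription, had 105, 0, 0 and 15 and 58, 6, 0 and 0. Mzb1 had 10 counts in Bach2KO mouse 1, 14 in Bach2WT mouse 1 and 0 in the other libraries. Tnfrsf17, the plasma cell survival receptor BCMA, had 2, 1, 14 and 0 counts in Bach2KO mice 1 to 4 and 0, 0, 8 and 0 in Bach2WT mice 1 to 4. Of Prdm1, Irf4, Pou2af1, Mzb1 and Tnfrsf17, only Prdm1 was counted in all 4 Bach2KO mice.

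Pigr, the epithelial receptor that carries polymeric IgA and IgM into secretions, had 379, 238, 190 and 594 counts in Bach2KO mice 1 to 4 and 139, 183, 99 and 96 in Bach2WT mice 1 to 4. In CPM every Bach2KO mouse lay above every Bach2WT mouse, with 2.70 ± 0.34 and 1.25 ± 0.38 (SD, n = 4 each). The groups did not overlap, in either direction, for 4.49% of all genes tested. The log2 fold change of 1.11 (SE 0.27) had an unadjusted p of 0.0013 and an adjusted p of 0.360 in edgeR (Benjamini-Hochberg), and an adjusted p of 0.0419 in DESeq2. Of the 10 genes of B cell survival and IgA transport 5 were tested, and Pigr was the only one with an unadjusted p under 0.05. Over all genes tested, 3.9% were higher and 3.56% lower at that p. Of the 10 Fc receptor genes, which bind antibodies on other cells, 6 were tested, all with a positive log2 fold change (median 1.45). Of these 3 had an unadjusted p under 0.05, against 3.9% of all genes tested, and 0 an adjusted one in edgeR. Of the antigen receptor diversification genes 5 of 9 had a row, of which 4 were tested, 1 with a positive and 3 with a negative log2 fold change, and 0 had an unadjusted p under 0.05. Of the germinal centre genes 4 of 7 were in the table and 3 were tested, all with a positive log2 fold change. At an unadjusted p under 0.05, 1 of the 3 was higher, against 3.9% of all genes tested.

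Marker genes of other tissues were read in the same way. Bach2KO mouse 1, the library with the most immunoglobulin counts, had 725 counts of Glycam1, a product of high endothelial venules of lymph nodes, against 2 and 6 in Bach2WT mice 1 and 2 and 0 in the other libraries. Ccl21a, a chemokine of lymph node stroma and lymphatic vessels, had 750, 73, 84 and 157 counts in Bach2KO mice 1 to 4 and 88, 30, 37 and 18 in Bach2WT mice 1 to 4 (log2 fold change 2.13, SE 0.64, edgeR Benjamini-Hochberg adjusted p = 0.523). Cxcl13, of the same list, had 250, 0, 0 and 82 counts in Bach2KO mice 1 to 4 and 277, 117, 109 and 4 in Bach2WT mice 1 to 4. Its log2 fold change went the other way (-1.24, SE 1.17, edgeR Benjamini-Hochberg adjusted p = 0.882). Madcam1 and Ccl19 had higher mean CPM in Bach2KO mice, and Cr2 was counted in Bach2WT mouse 1 only. The 6 lymph node stroma genes summed to 11.2, 0.930, 1.57 and 1.45 CPM in Bach2KO mice 1 to 4 and to 4.39, 1.24, 1.06 and 0.403 CPM in Bach2WT mice 1 to 4. Cxcl13 supplied 3.08 CPM of the sum in Bach2WT mouse 1. In each genotype the mouse with the highest sum was also the mouse with the highest immunoglobulin level, mouse 1, and the part of lymph node tissue in the result was not tested. Of the 10 T cell genes 7 were tested, all with a positive log2 fold change (median 0.91), 0 at an unadjusted p under 0.05, with summed levels of 1.12 to 3.59 CPM in Bach2KO and 0.292 to 2.55 CPM in Bach2WT mice. The intestinal epithelium genes in the table, 4 of 7, summed to 1.46, 1.0, 0.938 and 0.197 CPM in Bach2KO mice 1 to 4 and to 0.0975 to 0.475 CPM in Bach2WT mice. In DESeq2 1 of them was called higher, against 0.388% of all genes with a DESeq2 value. Of the 7 acinar genes 0 passed the adjusted threshold in edgeR, and 2 had a positive and 5 a negative log2 fold change. At an unadjusted p under 0.05, 1 was lower, Cpa1, against 3.56% of all genes tested. Cpa1 was also called lower in DESeq2, against 0.156% of all genes with a DESeq2 value.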

How the data were processed

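Messenger RNA of pancreatic tissue from 8 mice, labelled knockout or wild type, had been purified with poly-T beads and sequenced as paired-end reads. The submitters' processing notes name fastp, HISAT2 2.2.1 and featureCounts 2.0.6 and the build mm39. The authors deposited 1 table with a count per gene and library, which holds no normalization, a normalized signal, which is the count divided by a size factor of the library, and FPKM values made from that signal and the gene length. The deposited table also holds the log2 fold change of the authors' own comparison with its p-value before and after adjustment, and these were not used. Names matched every column of library values to its sample (0 were left out). Of the counts from 1 to 50, 71.6% were even, so that both mates of a pair may have been counted, and a count of 0 is therefore given with a floor of 3 or 6 counts.

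Counts of 12820 genes after filterByExpr were compared with edgeR 4.0.16 (quasi-likelihood test, TMM factors, no covariate, all 8 mice, Benjamini-Hochberg adjustment, threshold 0.05), with DESeq2 1.42.0 as an alternative. The edgeR script was checked on counts drawn from known values. These had a smaller dispersion than the common dispersion of the data, 0.192, and changes were planted only in genes above the median level. The check therefore does not show how the test performs on sparse segments. The log2 values correlated between replicate numbers used a prior count of 2, while the edgeR fold changes used the default of that tool. Shares and numbers of segments were compared by 2-sided exact permutation tests over mice (scipy 1.17.1), adjusted over 10 values, and the total immunoglobulin level was given without a test. Shares carry 95% Wilson intervals, which cover counting error only. Sequences came from GENCODE M21 (GRCm38), in which all 164 segments were found by Ensembl identifier, while positions are those of the deposited table. Named were all constant regions, the leading V segment of each chain and library, the 5 V segments of each chain with the most counts, segments called by either tool, and fixed B lineage genes. Members and lists were chosen with earlier results of these data known. The replicate numbers did not pair the mice: deviations from the group means correlated at 0.21, -0.03, -0.04 and -0.05 for mice 1 to 4. The labels give neither litter nor site, although the paper kept independent colonies in Rostock and Lübeck. Litter, site and colony could therefore not be taken into account, and the p-values treat the mice as independent. Normalization, filter, sex, replicate block, left-out mice and depth were varied.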

Additional observations from a re-analysis of the deposited data

Results flagged for a closer look

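In groups of 4, 14 values lay apart from the other 3 by Dixon's criterion at 95%, among 44 groups looked at. The criterion's rate of 1 in 20 by chance assumes normal and independent values, which these were not. A group with 3 values of 0 and 1 above it, such as Ighg3 or Iglc3 in Bach2KO mice, is always flagged. A group of 0 values only can never be. The number of flags therefore cannot be set against chance. Of these, 8 belonged to Bach2KO mouse 1: the total immunoglobulin level with 194 CPM, Ighm with 85.8 CPM, Igkc with 48.9 CPM, Iglc1 with 7.41 CPM, Iglc2 with 3.76 CPM, Ighg1 with 0.185 CPM, Ighg3 with 0.0494 CPM and Iglc3 with 0.0062 CPM, each the highest of its group. The Iglc3 value is 1 count. Bach2WT mouse 1 lay above the other Bach2WT mice for Igha with 11.3 CPM and for Iglc1 with 8.47 CPM. Bach2KO mouse 3 lay apart from the other Bach2KO mice with an IgM share of 84.9%, an IgG share of 5.76% and an IgA share of 7.91% of heavy chain constant counts, which are parts of 1 whole. Bach2WT mouse 4 lay apart with an IgM share of 100%, on 68 counts.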

How the results depend on the processing

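Within sex, with the replicate block and without 1 mouse, the permutation tests of the composition values could not reach the threshold whatever the data. The difference in total immunoglobulin level, Bach2KO minus Bach2WT, was 15.8 CPM, 110 CPM on the scale without digestive enzymes in the library size, and -30.4 to 39.6 CPM without 1 mouse each. The isotype differences kept their sign without any mouse, with 26.1 to 42.6 percentage points for IgM, -24.5 to -12.0 for IgG and -16.5 to -8.52 for IgA. The lambda difference of 6.92 became -1.83 by V segments and was 4.10 to 12.3 without 1 mouse each. The difference in kappa V segments of 2 became -7.25 with at least 1 count, -2.52 thinned to the smallest library and -8.87 in libraries with at least 90 counts, and ranged from -6.75 (without Bach2KO mouse 1) to 6.58. That for heavy chain V segments of 6.5 ranged from -2.5 (without Bach2KO mouse 1) to 10.8, that for the top 3 heavy chain share of -3.38 from -15.7 to 9.91 (-29.1 in libraries with at least 90 counts), that for the effective heavy chain number of 4.67 from 0.56 to 7.70 (12 in those libraries), and that for the effective kappa number of -3.64 from -5.59 to 0.21 without 1 mouse each.

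Across all genes edgeR called 1, but 73 without the filter on low counts, 0 with at least 10 counts in every mouse, 0 with sex as a covariate, 0 with the replicate block, 0 with counts divided by 2, 0 to 0 without 1 mouse each, and DESeq2 called 80. Of the constant regions edgeR called 0, but 4 without the filter, and DESeq2 1. Of the list genes edgeR called 0, but 2 without the filter, and DESeq2 3. With the replicate block the log2 fold change was -0.59 for Igkc and 0.41 for Iglc1, and it was 1.11 for Iglc1 with sex as a covariate. Without 1 mouse each, Ighm ranged from -1.20 to 2.78, Igkc from -2.24 to 1.39 and Iglc1 from -2.40 to 3.55. In the fits that kept them, Igha ranged from -5.73 (without Bach2KO mouse 1) to -2.32, Ighg1 from -5.73 (without Bach2KO mouse 1) to -1.98, Ighd from -3.53 to -1.57 and Ighg2b from -3.14 to -1.92, each highest without Bach2WT mouse 1. The limits at 90 and 100 counts, the halved counts and the list alternatives were chosen after seeing the data. The causes were not tested.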
